A study of Mus musculus with 8 samples.

Results

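The genes for the proteins of the cytosolic ribosome were taken from the deposited tables by symbol. The rule kept Rpl or Rps followed by a number, the stalk genes Rplp0, Rplp1 and Rplp2, and Rpsa, and left out the Rps6k kinases, Rps19bp1 and symbols with -ps. It found 93 of 53242 genes, 55 with large subunit and 38 with small subunit names. Of these, 46 and 31 encode the canonical proteins of each subunit, and the other 16 are paralogs, retrocopies and look-alikes such as Rpl22l1 and Rps27l. The genes were compared between B cells in which Eif4a1 was deleted and B cells in which it was not. EIF4A1 is an RNA helicase, an initiation factor that unwinds the 5′ ends of mRNAs.

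RNA was sequenced from splenic B cells of C57BL/6 mice aged 8 to 12 weeks, which had been kept in IL4 (40 ng/ml) for 24 h over irradiated (120 Gy) CD40LB cells, fibroblast feeder cells that display CD40 ligand, also make human BAFF, a B cell survival factor, and were taken out with magnetic beads before RNA extraction. The 4A1 KO group was Eif4a1 fl/fl with Cd23-cre, while the control group was Eif4a1 +/+ with Cd23-cre, so both carried the Cre transgene, which acts in B cells from the immature stage in the spleen onwards. There were 4 libraries of each genotype, with replicates 1 and 3 from males, 2 and 4 from females, 1 and 2 in batch A and 3 and 4 in batch B. Replicate 1 of both genotypes had been removed by the study for low viability, so the edgeR and limma fits used replicates 2 to 4 (n = 3 per genotype). Values by library, paralog ratios and interactions use all 8 libraries, replicate 1 included.

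Ribosomes have a small subunit, which reads the mRNA, and a large subunit, which joins the amino acids, and their proteins are needed in nearly equal numbers. B cells enlarge and make ribosomes when they are activated, and the mRNAs of ribosomal proteins are then translated more through a 5′ terminal oligopyrimidine (TOP) tract, a C at the first base followed by C and T, which LARP1 binds downstream of mTORC1. The large subunit carries a flexible stalk of RPLP0, RPLP1 and RPLP2 at a base that holds RPL12, where elongation factors dock.

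The first bases of the mRNAs of members that the results turn on, and of Rps6, a classical TOP mRNA, are shown because the TOP tract lies there. Each line gives 10 bases before and 20 bases from the annotated RefSeq start on, 5′ to 3′, placed on GRCm39 by exact match. Capitals mark the longest run that begins with C within 5 bases of the start and has at least 4 further C or T.
Rps6 (chr4:86775585-86775614, minus strand): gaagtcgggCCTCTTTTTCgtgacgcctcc
Rplp2 (chr7:141027554-141027583, plus strand): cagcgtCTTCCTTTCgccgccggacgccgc
Rpl12 (chr2:32851714-32851743, plus strand): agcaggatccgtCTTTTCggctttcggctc
Rps2 (chr17:24939027-24939056, plus strand): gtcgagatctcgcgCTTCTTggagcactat
Rps27 (chr3:90120936-90120965, minus strand): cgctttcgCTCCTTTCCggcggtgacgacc
Rps27l (chr9:66853358-66853387, plus strand): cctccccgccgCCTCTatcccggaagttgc
Rpl22l1 (chr3:28859647-28859676, plus strand): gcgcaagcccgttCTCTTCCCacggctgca
Rps12 (chr10:23663088-23663117, minus strand): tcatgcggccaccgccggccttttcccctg
Rpl36al (chr12:69230822-69230851, minus strand): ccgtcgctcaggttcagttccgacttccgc
Rps6, Rplp2 and Rps27 had such a run across the annotated first base, whereas that of Rpl12, Rps2, Rps27l and Rpl22l1 began within 5 bases after it, and the windows of Rps12 and Rpl36al had none that began that near, although pyrimidine runs lie farther downstream in both. A RefSeq start was found for 68 members. A C at the first base followed by at least 4 pyrimidines was present at 15 of them (22.06%), against 3.008% of 27025 RefSeq genes, and 32 (47.06%) had a run near the start, against 21.16% of all. The starts that these B cells use were not measured, and other RefSeq starts of a gene can differ.

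Between 31727557 and 43210858 reads were counted per library. Eif4a1 itself had 828, 747, 936 and 888 CPM (counts scaled to the total of the library) in controls 1 to 4, against 593, 557, 635 and 691 in 4A1 KO 1 to 4, and Eif4a2, its paralog, had 617, 435, 498 and 530.1 and 850.4, 657, 852 and 763. Eif4a1 was therefore lower, and Eif4a2 higher, in every 4A1 KO library than in every control. The counts cover the whole gene, and the exons that Cre removes were not examined apart. The summed CPM of 5 B cell markers ran from 2896 to 3037 in control and from 2109 to 2436 in 4A1 KO, with Cd79a, Cd79b, Cd22 and Pax5 lower and Ms4a1 not past the test. Those of 3 plasma cell markers ran from 143 to 179 and from 76.1 to 97.1. The 11 fibroblast markers summed to 7.84 to 43.2 and 10.5 to 25.8 CPM with Lum and Postn at 0 in controls 2 to 4 and 4A1 KO 2 to 4, the 4 T cell markers to at most 0.1 and the 4 myeloid markers to 4.12 to 8.17 and 7.28 to 8.94. The part of these differences in the results was not tested, and in bulk RNA fewer cells of a type and less RNA per cell cannot be told apart.

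Ribosomal protein mRNAs that passed the test were mostly higher in 4A1 KO B cells, by small folds, and the small subunit had the higher median. Of the 90 members with enough counts to be tested, 42 (46.7%) rose and 7 (7.78%) fell at an adjusted p under 0.05 (edgeR's quasi-likelihood test, Benjamini-Hochberg over all genes), against 26.3% and 26.7% of all 14218 genes tested. With the further condition of a log2 fold change beyond 0.5, Rpl12 and Rps12 were called increased and Rpl36al decreased, which is 2 and 1 of 90 against 11.6% and 13.7% of all genes. The median log2 fold change was 0.13 for members and 0.01 for all genes.

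In the small subunit 25 of 37 members (67.6%) rose and 0 fell by edgeR's test, 0 also at an unadjusted p under 0.05. DESeq2 and limma on TPM likewise had 0 decreases there, and limma had 1 at an unadjusted p. Increases were fewer in TPM, with 13 of 38 (34.2%) in the small and 7 of 53 (13.2%) in the large subunit (limma). In that fit 22.3% of all genes rose, so the large subunit lay below the share of all genes. In counts the large subunit had 17 of 53 (32.1%) that rose, 7 (13.2%) that fell and 29 that did not pass. Of all genes tested 26.3% rose and 26.7% fell. The median log2 fold change was 0.18 for the small and 0.08 for the large subunit. Within the pairs of replicates 2, 3 and 4 the median differences in CPM were 0.20, 0.14 and 0.25 (log2) for the small subunit, 0.07, 0.03 and 0.09 for the large and 0.01, -0.01 and 0.01 for all genes, and replicate 1 gave 0.17, 0.06 and -0.02. The small subunit median was thus the higher one in each pair, and in batch A and batch B alike, but the difference between the subunits was not tested because the members were chosen with results known. Among canonical genes alone, 24 of 31 small subunit members (77.4%) rose and 0 fell, and 17 of 46 large subunit members (37.0%) rose and 3 (6.52%) fell.

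**Figure D1:**
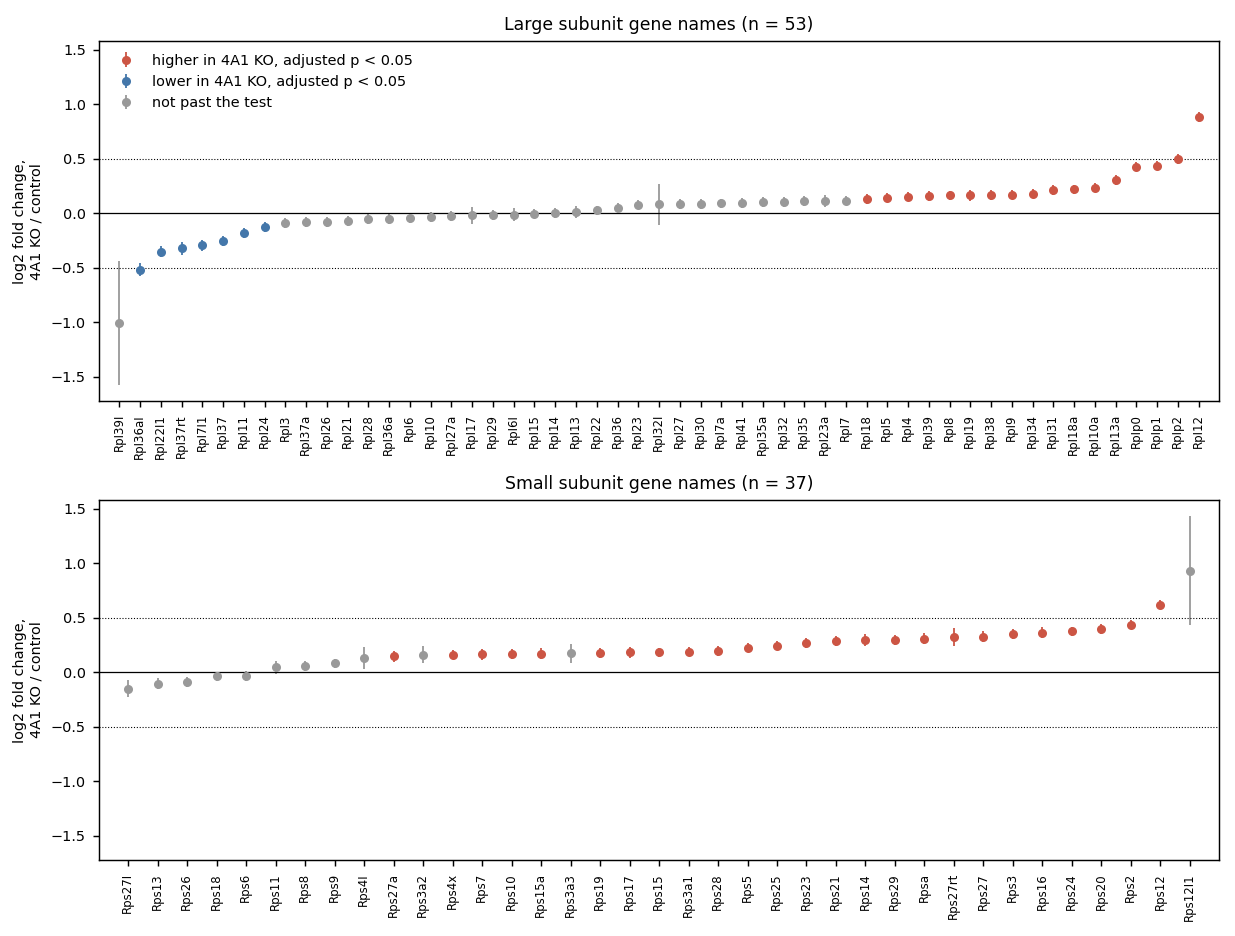
Log2 fold change (4A1 KO over control, edgeR, error bars are standard errors, n = 3 per genotype) of the 90 tested members, ordered within each subunit, with dotted lines at 0.5 and -0.5. Most small subunit members lie above 0, the 7 decreases are all in the upper panel for the large subunit, and Rpl12 and Rps12 lie above 0.5. Rps12l1 and Rpl39l are also beyond the dotted lines, with wide errors, but did not pass the test.

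These counts depended on the block of batch and sex. Without it 17 of 90 members rose and 5 fell, against 17.2% and 18.6% of all genes. The share of increases was then near that of all genes, and that of decreases stayed below it. By subunit 11 of 37 (29.7%) small and 6 of 53 (11.3%) large subunit members rose, while the medians were 0.18 and 0.08 as before. Leaving out replicate 2 left 29 increases, 19 of 36 in the small and 10 of 53 in the large subunit. For fits without 1 replicate the shares of all genes are not given here, so such counts cannot be set against them. The small subunit had 3 decreases without replicate 4 (Rps13, Rps26 and Rps27l, of which Rps26 was named after its values were seen) and 1 (Rps13) when all 8 libraries were used. Among well counted genes, those at 100 CPM or more on average, 42 of 78 members (53.8%) rose, against 35.55% of 2391 genes, and 5 fell, against 31.9% of those genes. Over all 8 libraries the genotypes did not overlap in CPM for 15 members. Of these, 12 were higher in every 4A1 KO library (8 of the small and 4 of the large subunit) and 3 lower (all of the large), against 17% and 19.9% of all genes tested. The share of members without overlap was thus below that of all genes in both directions.

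The members together took 6.41, 6.00, 5.82 and 5.23% of all counts in controls 1 to 4, against 7.22, 6.80, 6.38 and 6.08% in 4A1 KO 1 to 4. The share was higher in 4A1 KO in each of the 4 pairs, by 0.81, 0.80, 0.56 and 0.85 percentage points, but the ranges of the genotypes overlapped because control 1 lay above 2 of the 4A1 KO libraries. In replicates 2 to 4 it was 5.68% ± 0.404 in control, against 6.42% ± 0.361 in 4A1 KO (SD, n = 3), without overlap. Of the deposited TPM (transcript levels per length, scaled to the library) members held 13.8% ± 0.749 and 15.5% ± 0.681.

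The summed counts of small over large subunit genes gave a ratio of 0.746, 0.749, 0.736 and 0.727 in controls 1 to 4, against 0.771, 0.778, 0.761 and 0.771 in 4A1 KO 1 to 4. Every 4A1 KO library lay above every control. In TPM the ratio was 0.808, 0.813, 0.785 and 0.797 and 0.83, 0.838, 0.802 and 0.818. These ranges overlapped, although the ratio was higher in 4A1 KO in each pair.

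**Figure D2:**
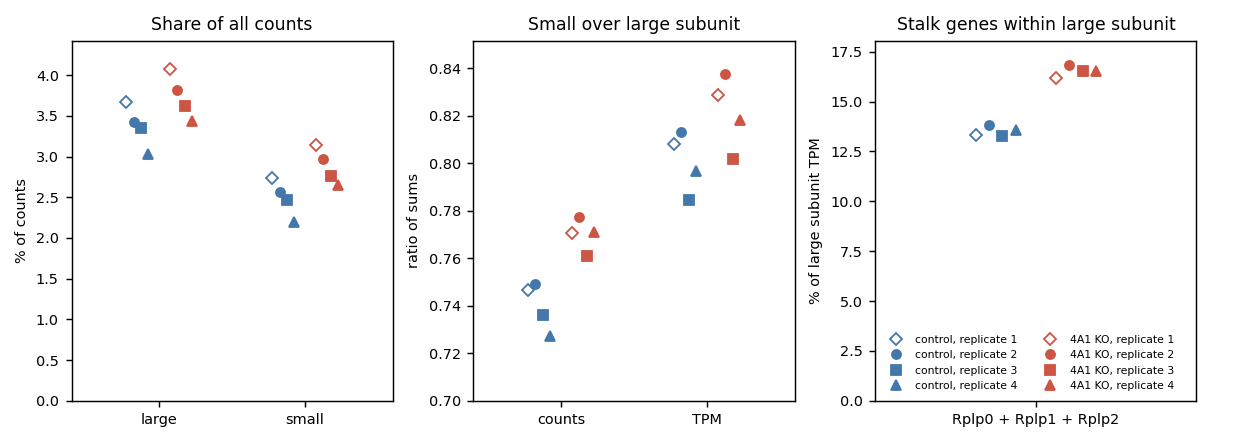
Left, percent of all counts on large and small subunit genes, by library. Middle, summed small over large subunit genes in counts and in TPM (axis from 0.7). Right, percent of large subunit TPM held by Rplp0, Rplp1 and Rplp2, which lay between 13.3 and 13.8 in control and between 16.2 and 16.8 in 4A1 KO. Open diamonds are replicate 1, and circles, squares and triangles are replicates 2, 3 and 4.

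Of the large subunit, Rpl12, named for its call, and the stalk genes are described first. Rpl12 (ENSMUSG00000038900, chr2:32851496-32855357 of GRCm39), whose protein lies at the stalk base, had 746, 665, 661 and 593 CPM in controls 1 to 4, against 1391, 1278, 1203 and 1052 in 4A1 KO 1 to 4. All 4A1 KO libraries were above all controls by a wide margin. Its log2 fold change was 0.88 (standard error 0.04, adjusted p = 9.59e-06, edgeR), a 1.84-fold rise, with 0.85 to 0.91 when 1 replicate at a time was left out, and its TPM was 1692 ± 83.4, against 3137 ± 265 in 4A1 KO (SD, n = 3).

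Rplp0, the stalk protein that binds the ribosomal RNA, had 3214, 3017, 2892 and 2649.6 CPM in controls 1 to 4, against 4298, 4035, 3849 and 3572 in 4A1 KO 1 to 4. Rplp1, which pairs with Rplp2 on the stalk, had 1276, 1280.0, 1189 and 1055 and 1711, 1725, 1546 and 1479.5 CPM. Rplp2 had 742, 702, 693 and 586 and 1044, 1013, 936 and 841 CPM. The genotypes did not overlap for any of these genes. The log2 fold changes were 0.42, 0.44 and 0.50 (standard errors 0.04, 0.04 and 0.04), with adjusted p of 5.04e-05, 6.33e-05 and 3.59e-05 (edgeR). Rplp2 was just short of the call at 0.5, and passed it with upper quartile normalization and without replicate 3. Within pairs 1 to 4, Rplp0 rose by 0.42, 0.42, 0.41 and 0.43 (log2 CPM). Together the stalk genes held 13.3, 13.8, 13.3 and 13.6% of the large subunit TPM in controls 1 to 4, against 16.2, 16.8, 16.5 and 16.5% in 4A1 KO 1 to 4. The part of the large subunit's TPM on the stalk was thus higher in every 4A1 KO library than in any control.

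RPL5 and RPL11 form, with the 5S RNA, the central protuberance of the large subunit and, when free, bind MDM2. Rpl5 had 689, 636, 616 and 574 CPM in controls 1 to 4, against 728, 699, 667 and 645 in 4A1 KO 1 to 4, a log2 fold change of 0.14 (adjusted p = 0.0187, edgeR). Rpl11 had 608, 581, 529 and 502 and 582, 486, 471 and 457 CPM and a log2 fold change of -0.18 (adjusted p = 0.00951, edgeR). One passed the test upwards and the other downwards, both overlapped between the genotypes over 8 libraries in CPM (Rpl5 did not in TPM), and both lost the adjusted p without the block (0.131 and 0.0818), without replicate 2 (0.0650 and 0.0728) and in TPM (0.0687 and 0.0618, limma), as did Rpl5 without replicate 4 (0.0553).

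The other canonical decreases were Rpl37 and Rpl24, named after their values were seen, with log2 fold changes of -0.26 (adjusted p = 0.00126) and -0.13 (adjusted p = 0.0359, edgeR for both). Rpl37 passed in all 10 alternatives and Rpl24 in 4 of them. Rpl8, near the peptidyl transferase centre, had the highest mean TPM of the large subunit in control. It had 4876 ± 230.4 TPM in control, where Rplp1 with 4666 ± 378 and Rplp0 with 4384 ± 193 came next, and both neighbours of Rplp1 were within its SD. In 4A1 KO Rplp1 was highest with 6351 ± 387 TPM, before Rplp0 with 5869 ± 204 and Rpl8 with 5417 ± 239.7 (SD, n = 3), each more than 1 SD from its neighbour. Rpl17 was the lowest canonical large subunit gene in both genotypes, with 141 ± 16.2 and 135 ± 3.8 TPM.

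**Figure D3:**
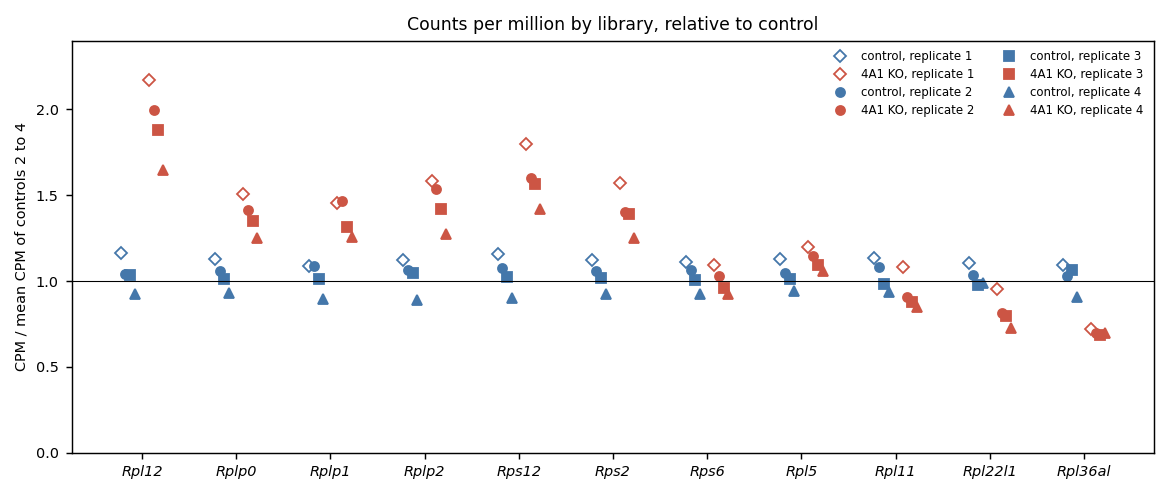
CPM of each library divided by the mean of controls 2 to 4, for 11 members on a linear axis from 0, with open diamonds for replicate 1 and circles, squares and triangles for replicates 2, 3 and 4. The 4A1 KO values of Rpl12, the stalk genes, Rps12 and Rps2 lie above all controls, those of Rpl36al and Rpl22l1 below them, and those of Rps6, Rpl5 and Rpl11 overlap.

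In the small subunit Rps12 (ENSMUSG00000061983, chr10:23661081-23663173), a protein of the beak of the 40S subunit, had the highest log2 fold change of the members that passed the test. It had 523, 488, 463 and 409 CPM in controls 1 to 4, against 816, 725, 709 and 645 in 4A1 KO 1 to 4. Every 4A1 KO library was above every control, and the log2 fold change was 0.62 (standard error 0.04, adjusted p = 1.71e-05, edgeR), with 0.60 to 0.64 when 1 replicate was left out. Rps12 and Rpl12 were also the members that were called when glmTreat tested against a log2 fold change of 0.5 itself.

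Further small subunit members whose libraries did not overlap, named after their values were seen apart from Rpsa, were Rps2, Rps3, Rps16, Rps20, Rps21 and Rps24. RPS2 and RPS3 lie at the entry of the mRNA channel. Rps2 had 1619, 1529, 1465 and 1334 CPM in controls 1 to 4, against 2265, 2020.0, 2009 and 1802 in 4A1 KO 1 to 4 (log2 fold change 0.43, standard error 0.04, adjusted p = 5.26e-05, edgeR). Rps3 had 1896, 1870.0, 1643 and 1538 and 2442, 2262, 2109 and 2029.7 CPM (log2 fold change 0.35). Rpsa, the laminin receptor protein of the 40S head, had 1729, 1606, 1597 and 1376 and 2036, 2007, 1819 and 1807 CPM (log2 fold change 0.30, adjusted p = 9.12e-04, edgeR). The log2 fold changes of Rps16, Rps20, Rps21 and Rps24 were 0.36, 0.40, 0.29 and 0.37, all smaller than that of Rps12, and all stayed past the adjusted p in the alternatives tried.

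Rps6, the substrate of the S6 kinases, and Rps13 did not follow. Rps6 had 659.8, 632, 599 and 551 CPM in controls 1 to 4, against 650.2, 611, 569 and 549.8 in 4A1 KO 1 to 4 (log2 fold change -0.04, standard error 0.04, adjusted p = 0.495, edgeR). Rps13 had 595, 567, 560.3 and 496 and 537, 507, 493 and 498 CPM (log2 fold change -0.11, adjusted p = 0.103, edgeR). In CPM the genotypes overlapped for both, whereas in TPM they were apart for Rps13, with lower levels in 4A1 KO (1425, 1479, 1425 and 1306 in controls 1 to 4, against 1297, 1266, 1278 and 1249, adjusted p = 0.118, limma). The most abundant small subunit members in TPM were Rps15 (4095 ± 258 in control, against 4598 ± 127 in 4A1 KO), Rps14 (4019.8 ± 575 and 4494 ± 919.5) and Rps4x (3423 ± 167 and 3804 ± 88.2, SD, n = 3). Rps14 varied too much to be ordered against the others, while Rps15 was above Rps4x by more than their SDs. Their log2 fold changes in counts were 0.18, 0.29 and 0.16, each past the adjusted p. Without the block Rps15 and Rps4x lost the adjusted p (0.109 and 0.122), Rps4x also without replicate 2 (0.0537), and in TPM all 3 lost it (0.0745, 0.178 and 0.0928, limma).

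Paralogs, closely related copies of ribosomal protein genes, were compared with their partners through the ratio of their TPM in each of the 8 libraries, by a test that did not pair the replicates. Of 9 pairs, 7 had TPM above 0 throughout. Rpl3l, a heart and muscle gene, and Rpl10l, a testis gene, had 0 counts in every library. None of the 7 ratios passed the adjusted p over the pairs, for which 0.1 was the lowest value obtained (2 had an unadjusted p under 0.05, and in CPM the lowest adjusted p was 0.0667, over 3 pairs). The test could hardly pass. The exact permutation test of 4 against 4 allows no p below 0.0286, and most of the 7 pairs would have had to reach it. The adjusted p therefore cannot decide whether a given ratio differed.

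Rpl22l1 over Rpl22, whose coding sequences are 68.2% identical, had a ratio of 0.535, 0.386, 0.404 and 0.468 in controls 1 to 4, against 0.342, 0.284, 0.274 and 0.275 in 4A1 KO 1 to 4. All 4A1 KO libraries were below all controls (two-sided exact permutation test, p = 0.0286, the lowest that 4 against 4 allow, adjusted p = 0.1). The log2 ratio changed by -0.60 in TPM and by -0.35 in CPM. In counts Rpl22l1 had 115, 107, 101 and 102 CPM in controls 1 to 4, against 98.7, 84.5, 82.7 and 75.5 in 4A1 KO 1 to 4 (log2 fold change -0.35, standard error 0.05, adjusted p = 6.06e-04, edgeR). Rpl22 had a log2 fold change of 0.02 in counts and 0.16 in TPM (adjusted p = 0.673 and 0.127, edgeR and limma), so the paralog fell and the partner did not pass the test.

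Rpl36al over Rpl36a, 87.7% identical in coding sequence, had a ratio of 0.490, 0.495, 0.546 and 0.523 in controls 1 to 4, against 0.351, 0.363, 0.384 and 0.404 in 4A1 KO 1 to 4. The genotypes again did not overlap (p = 0.0286, adjusted p = 0.1, two-sided exact permutation test). Rpl36al (ENSMUSG00000049751, chr12:69228230-69231234) had 155, 146, 151 and 129 CPM in controls and 102.7, 99.5, 97.5 and 98.8 in 4A1 KO, and it was the one member called decreased (log2 fold change -0.52, standard error 0.06, adjusted p = 1.23e-04, edgeR). Its change was -0.46 without replicate 3 and -0.50 with upper quartile normalization, which ended the call on size. Rpl36a had a log2 fold change of -0.05 (adjusted p = 0.354, edgeR).

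Rpl7l1 over Rpl7, 54.0% identical, had ratios of 0.0573, 0.0628, 0.0762 and 0.0785 and 0.0491, 0.0490, 0.0540 and 0.0574 (p = 0.0571, adjusted p = 0.133, two-sided exact permutation test). The ratio was lower in 4A1 KO in each of the 4 pairs, and the ranges overlapped only between control 1 and 4A1 KO 4. In counts Rpl7l1 fell by 0.30 on the log2 scale (adjusted p = 0.00144, edgeR). Rpl7 had a log2 fold change of 0.12 with an adjusted p of 0.0535 (edgeR), and passed in 4 of 10 alternatives.

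Rps27l, which p53 is known to induce, over Rps27, 76.2% identical, had ratios of 0.0887, 0.130, 0.128 and 0.148 and 0.0783, 0.0857, 0.0932 and 0.111 (p = 0.0857, adjusted p = 0.15, two-sided exact permutation test). The ratio was lower in 4A1 KO in each pair, but control 1 lay within the 4A1 KO range. Rps27l itself had 56.5, 73.3, 65.3 and 61.9 CPM in controls 1 to 4, against 54.1, 59.4, 55.9 and 64.5 in 4A1 KO 1 to 4. Its log2 fold change was -0.15 (adjusted p = 0.121, edgeR), and replicate 4 went against the other pairs: without it the change was -0.26 (adjusted p = 0.00466). Rps27 rose by 0.32 (adjusted p = 8.47e-04, edgeR) and without the block had an adjusted p of 0.0522.

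Rps27rt, a copy with the same coding sequence as Rps27 (100% identical), cannot be told from it in coding reads. Its ratio to Rps27 was 0.266, 0.279, 0.327 and 0.305 and 0.242, 0.290, 0.294 and 0.319 (p = 0.743, two-sided exact permutation test), and it had a log2 fold change of 0.32 (adjusted p = 0.0112, edgeR), which passed in 6 of 10 alternatives but not, for example, with all 8 libraries (adjusted p = 0.0770). Rpl39l and Rps4l were rare. Rpl39l had 14, 17, 17 and 35 counts in controls 1 to 4, against 22, 5, 25 and 5 in 4A1 KO 1 to 4, a log2 fold change of -1.01 (adjusted p = 0.168, edgeR) that was -2.27 without replicate 3 and -0.26 without replicate 4. Rps4l had 16.6, 6.13, 8.20 and 6.23 and 7.0, 7.04, 8.56 and 6.77 CPM, with control 1 far above the others, and a log2 fold change of 0.13 (adjusted p = 0.324, edgeR). Neither passed the adjusted p with replicates 2 to 4, but Rpl39l did without replicate 3 (adjusted p = 0.00416, edgeR). Within pairs 1 to 4 Rpl39l differed by 0.49, -0.55, 0.29 and -1.09 (log2 CPM), upwards in both pairs of males and downwards in both of females, but its interaction with sex did not pass the adjusted p (unadjusted p = 9.74e-04, adjusted p = 1, edgeR). Their ratios to Rpl39 and Rps4x had p of 0.4 and 0.257 (two-sided exact permutation tests).

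**Figure D4:**
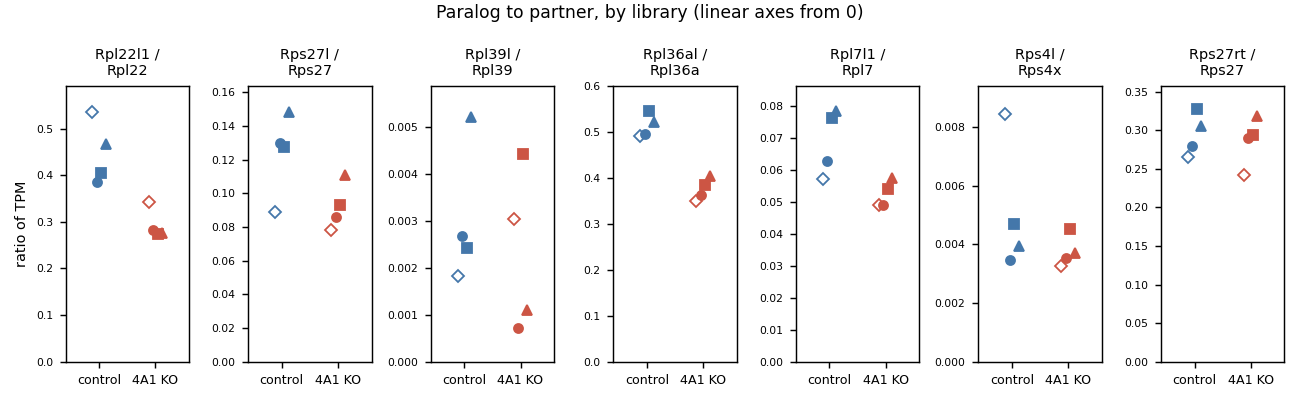
Ratio of the TPM of each paralog to that of its partner in the 8 libraries, on linear axes from 0, with open diamonds for replicate 1 and circles, squares and triangles for replicates 2, 3 and 4. The genotypes are separate for Rpl22l1 over Rpl22 and for Rpl36al over Rpl36a, and overlap in the other 5 pairs.

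Of the 16 members outside the canonical set, 13 were tested, of which 1 (Rps27rt) rose and 4 (30.8%) fell, against 26.3% and 26.7% of all genes tested, so the share of decreases was near that of all genes. The decreases were Rpl36al, Rpl22l1, Rpl7l1 and Rpl37rt, a retrocopy of Rpl37 named after its values were seen. Rpl37rt had a log2 fold change of -0.32 (adjusted p = 0.00179, edgeR), near the -0.26 of Rpl37, whose sequence it shares. GENCODE annotates 6 members as processed pseudogenes. At least 1 processed copy, at least 95% identical over at least 50% of the annotated mRNA of the member, was found for 46 of the 93 members. There were 22 for Rps12 and 28 for Rps2. The 6 pseudogene members were matched to themselves too, so the 1 copy of Rpl32l is itself. For the other members these are minimum counts, since a copy of a gene with a long annotated mRNA, such as Rpl37, falls short of that length.

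Counts and TPM, made from the same reads by different programs, gave log2 fold changes within 0.1 of each other for 82 of the 90 tested members. In TPM 20 of 91 members rose and 5 fell at an adjusted p under 0.05 (limma), against 22.3% and 24.9% of all genes tested. The share of increases in TPM was thus near that of all genes, and that of decreases below it. The greatest gaps were in Rps12l1, Rpl39l and Rps15a. Rps12l1, a processed pseudogene of Rps12, had 2, 10, 3 and 4 counts in controls 1 to 4, against 10, 10, 11 and 10 in 4A1 KO 1 to 4, but 0, 0, 20.7 and 40.7 TPM in controls 1 to 4 and 0 in each 4A1 KO library. Its log2 fold change was 0.93 in counts and -3.27 in TPM, opposite in direction, with neither past the adjusted p (0.148, edgeR, and 0.0617, limma). With all 8 libraries it was called increased in counts (1.23, adjusted p = 0.0433, edgeR). Rps15a had a log2 fold change of 0.17 in counts and 0.62 in TPM, where it was called increased (adjusted p = 0.01, limma) and had 290.1, 265, 321 and 240.0 in controls 1 to 4, against 588, 439, 413 and 413 in 4A1 KO 1 to 4. Rps23rg1, a retroposed relative of Rps23, had 0 counts in every library but 101, 97.4, 91.1 and 82.1 TPM in controls 1 to 4, against 114, 109, 109 and 99.2 in 4A1 KO 1 to 4. How reads were shared between such copies was not tested.

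**Figure D5:**
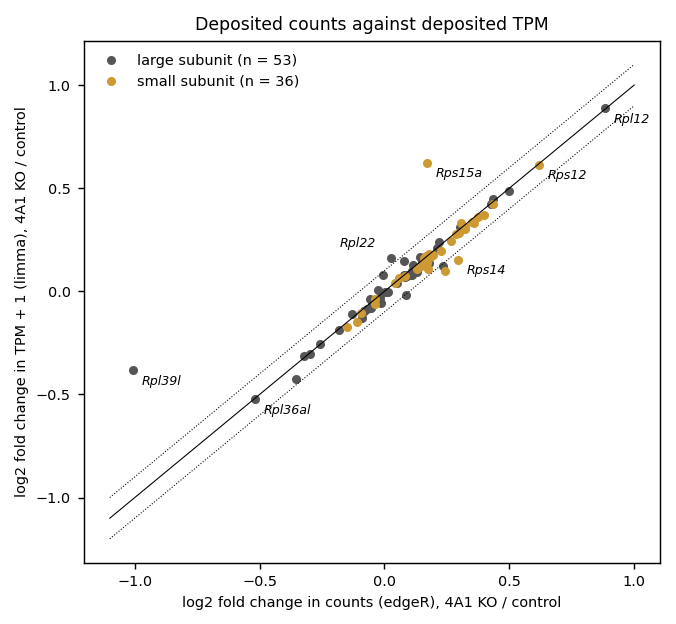
Log2 fold change in deposited counts (edgeR) against that in deposited TPM + 1 (limma) for 89 members, with the line of equality and dotted lines 0.1 from it. Rps12l1, at 0.93 in counts and -3.27 in TPM, is left out of the plot, and Rps15a and Rpl39l lie farthest from the line among those shown.

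Features that the naming rule did not use were set beside the changes. Of the canonical members 30 host a small nucleolar RNA in an intron, among them Rpl12 and Rps12, and their median log2 fold change was 0.11, against 0.16 for the 47 without one. The 31 tested members with a pyrimidine run near a RefSeq start had a median of 0.16, with 17 (54.8%) that rose and 1 (3.23%) that fell. The 34 with a RefSeq start and no such run had 0.09, with 16 (47.1%) that rose and 6 (17.6%) that fell. Of all genes tested 26.3% rose and 26.7% fell. The groups also differed in make-up, since 53.85% of small and 42.86% of large subunit members with a RefSeq start had a run. Rpl36al, Rpl7l1 and Rpl37rt, outside the canonical set, were among the decreases without a run. The difference between the groups was not tested. Among 77 canonical members the log2 fold change had a Spearman's rho of 0.230 with the control TPM and -0.048 with coding length, over points that share their libraries. Rpl26 is the member nearest to Eif4a1, 0.760 Mb away on chromosome 11, and had a log2 fold change of -0.08 (adjusted p = 0.161, edgeR).

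Ribosome components outside the naming rule were examined too. Rack1, a scaffold of the 40S head, had 2056, 1859, 1859 and 1662 CPM in controls 1 to 4, against 2569, 2434, 2248 and 2135 in 4A1 KO 1 to 4, without overlap (log2 fold change 0.35, adjusted p = 2.12e-04, edgeR). Fau, which encodes RPS30 fused to a ubiquitin-like protein, had a log2 fold change of 0.17 (adjusted p = 0.0119, edgeR). Fau did not pass without the block (0.141), without replicate 2 (0.0833) or in TPM (0.0771, limma).

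Of 12 genes for chaperones of ribosomal proteins, subunit assembly factors and regulators, 5 rose (Larp1, Eif6, Ltv1, Pdcd2 and Tsr2), 1 fell (Rsl24d1) and 6 did not pass the test, against 26.3% and 26.7% of all genes tested, with a median log2 fold change of 0.02. In TPM Pdcd2 and Tsr2 did not pass (0.139 and 0.0849, limma), and Tsr2 turned from 0.24 in counts to -0.26. Eif6, which keeps the subunits apart until the 60S is mature, had 298, 281, 311 and 293 CPM in controls 1 to 4, against 431, 385, 421 and 399 in 4A1 KO 1 to 4 (log2 fold change 0.45, adjusted p = 4.99e-05, edgeR). Larp1, the TOP mRNA binding protein, had 829.7, 789, 820.1 and 883 and 1130.1, 1087, 1277 and 1193 CPM (log2 fold change 0.52, adjusted p = 6.51e-05, edgeR). Neither overlapped between the genotypes.

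The genotype effect was compared between sexes and between batches in all 8 libraries. The interaction with sex passed the adjusted p in 0 of 90 members (6 at an unadjusted p under 0.05) and that with batch in 0 of 90 (0 unadjusted, edgeR), against 0% and 0.00704% of 14211 genes. Only edgeR was run for these interactions.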

How the data were processed

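RNA-seq values of 8 libraries, 4 control and 4 4A1 KO, were taken from whole-series tables, with groups, sex and batch from the labels. The authors trimmed reads with Trim Galore 0.6.6, mapped them to GRCm39 with HISAT2 2.1.0, and deposited raw counts from Seqmonk over merged isoforms with strand taken into account. The authors also deposited TPM from StringTie 2.1.1. The treatment of multi-mapped reads is not given in the sources used here.

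Counts were fitted with edgeR 4.0.16 in R 4.3.3 (TMM, filterByExpr by genotype, quasi-likelihood test, covariates batch and sex, replicates 2 to 4), and adjusted over 14218 genes. For TPM, limma 3.58.1 was run on log2(TPM + 1) with the same covariates over 12976 genes that averaged 1 TPM or more. A call needed both an adjusted p under 0.05 and a log2 fold change beyond 0.5. CPM are counts over the library total, without TMM factors. Tests were two-sided. Per the study's methods, replicates are B cells of separate mice. In the 6 libraries batch and sex equal the replicate number as a block. The pairing comes from those labels, and same-numbered libraries deviated together (Pearson's r of 0.630, 0.540 and 0.471 across genes, -0.271 for other pairs).

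Sequences are from RefSeq starts (a GRCm38 table) placed on GRCm39 by exact match, and annotation from GENCODE M39, in which all 93 members were matched. Processed copies were found with blastn 2.17.0. The code was tested on simulated data of this comparison, where edgeR recovered 182 of 199 changed genes among 14070 with 5 false calls and limma 200 of 200 among 12976 with 0.

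The members, lists, pairs and tests were chosen with earlier results of these data known. Genes were named by rule: called members, the fixed paralog pairs, in each subunit the 3 highest TPM and the 2 highest and 2 lowest log2 fold changes above 10 TPM, fixed genes of the 5S particle, stalk and small subunit, Fau and Rack1, the 2 smallest adjusted p among chaperones, and Eif4a1 and Eif4a2. Alternatives were DESeq2's size factors, upper quartile normalization, DESeq2 1.42.0 with normal shrinkage, no filter, no block, all 8 libraries, leaving out each replicate, glmTreat, TPM with a pseudocount of 0.1, no TPM filter, and CPM ratios. Some genes of the lists are not reported here.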

Additional observations from a re-analysis of the deposited data

Results flagged for a closer look

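Among 90 groups of 4 libraries, 3 held a single outlying library, and about 4.5 (1 in 20) would do so by chance. The measure was how far that library lay from its closest neighbour relative to the whole spread of the group. It was 0.849 for Rpl39l in control, where control 4 had 0.810 CPM and no other control more than 0.420. It was 0.847 for Rps4l among 4A1 KO libraries, since 4A1 KO 3 reached 8.56 CPM and no other 4A1 KO library more than 7.04. It was 0.862 for the ratio of Rpl22l1 to Rpl22 in TPM among 4A1 KO libraries, since 4A1 KO 1 reached 0.342 and no other more than 0.284.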

How the results depend on the processing

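Medians and shares moved by less than the spread between replicates in all alternatives, except that the share of members rose by 1.63 percentage points of TPM and by 0.74 of counts, which are different totals. Medians without 1 replicate lay between 0.07 and 0.09 for the large and 0.16 and 0.23 for the small subunit. The number called increased was 2, and 2 to 3 without 1 replicate, with Rplp2 added without replicate 3 and under upper quartile normalization, Rps15a in TPM and Rps12l1 with all 8 libraries (3 in each), but 42 whatever the fold change. The number called decreased was 1, with 7 whatever the fold change, 0 with upper quartile normalization, 0 with glmTreat and 0 among canonical genes. Past the adjusted p alone, 42 rose, against 26.3% of all genes, 17 with no replicate block, against 17.2%, and 20 in TPM, against 22.3%. Without 1 replicate 29 to 41 rose and 5 to 10 fell, with no share of all genes given for these fits. With no replicate block 5 fell. Without replicate 3 the member called decreased was Rpl39l, not Rpl36al. Among genes named by rule, the sign reversed for Rpl10 (-0.0583 to 0.0127 without 1 replicate, 0.0127 without replicate 3), Rpl22 (-0.0032 to 0.0427, -0.0032 without replicate 4), Rps12l1 (-3.27 in TPM) and Rps4l (-0.24 in all 8 libraries), none of them past the adjusted p in either fit. Between counts and TPM Rpl13, Rpl14, Rpl15, Rpl27a, Rpl30 and Tsr2, named for that, also differed in sign. The same held for Grwd1, Mrto4 and Nap1l1 of the chaperone list. Of 36 genes named that passed the adjusted p in counts, 23 passed in all alternatives and 13 were lost in at least 1. The changes of the 7 paralog ratios kept their sign in all alternatives, but without 1 replicate that of Rpl39l to Rpl39 ranged from -1.13 to -0.09, that of Rps4l to Rps4x from -0.51 to -0.04 (without replicate 1) and that of Rps27rt to Rps27 from -0.08 to -0.01. The causes were not tested. With 3 libraries per genotype, changes of genes under 1 CPM, such as Rpl39l and Rps12l1, have wide errors.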
